A study of Mus musculus with 31 samples.

Results

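The comparison set the liver's response to PF-04287881 in NZW/LacJ mice against the response in MA/MyJ mice, gene by gene. Arrays were chosen by the strain and treatment on their labels alone, which gave 16 of the 31 arrays of the series, 1 array for each of 4 animals in each of 4 groups. Within each strain the response of a gene was its mean log2 value in the animals given PF-04287881 minus its mean in the vehicle animals, and the quantity compared was the NZW/LacJ response minus the MA/MyJ response. All 16 animals were females of an inbred strain, 8 to 10 weeks old when dosing began. Vehicle animals received sterile water. Treated animals received PF-04287881, a candidate antibiotic, at 600 mg/kg by gavage every day for 7 days, and RNA came from the left liver lobe taken 24 hours after the last dose. The remaining 15 arrays covered SM/J and WSB/EiJ and entered only where stated.

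The labels code both strains for vacuolation of Kupffer cells and NZW/LacJ alone for single cell necrosis. This coding was given per strain and stands on the vehicle animals too, so the labels used here hold no score for a single animal. Necrosis coding and strain therefore cannot be told apart in this comparison. The labels gave no hour of the day for dosing or for tissue collection.

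Kupffer cells are the macrophages that line the liver sinusoids, and they clear particles and lipid by taking them into lysosomes, where acid hydrolases break them down. Vacuoles in these cells are a microscopic sign of enlarged lysosomes. Single cell necrosis is the death of scattered hepatocytes, the cells that carry out drug metabolism, bile acid synthesis and much of the body's lipid handling. Hepatocyte genes also follow a daily rhythm set by the circadian clock.

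Alb, the albumin gene and a defining hepatocyte transcript, lay between 14.67 and 14.80 in all 16 arrays, and the mean of 20 hepatocyte markers lay between 13.4 and 13.6. The deposited values were log2 units, in which 1 unit is a factor of 2 in signal, and 12476 of 18147 genes with a symbol were bright enough to test. The first principal component held 42.5% of the variance and separated the strains, with MA/MyJ arrays between -27.2 and -16.1 and NZW/LacJ arrays between 19.8 and 25.2. The second held 24.3% and separated the treatments. On it the treated NZW/LacJ animals 1 and 4 lay at -29.0 and -24.9, apart from animals 2 and 3 at -10.7 and -11.1. Values in bulk liver cannot tell a change in the number of cells of a type from a change in RNA per cell.

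The response differed between the strains for 1278 of the 12476 genes, which is 10.2% (limma, Benjamini-Hochberg adjusted p under 0.05, as in all calls that follow). The NZW/LacJ response was the higher for 880 genes (7.05% of those tested) and the lower for 398 (3.19%). Over all tested genes the median difference was 0.02, and 53.9% of the differences were positive. With each array centred on its median, 1239 genes passed, 686 higher and 553 lower, so the share of higher calls went from 68.9% to 55.4%. Centring removed 0.11 from the median NZW/LacJ response, 0.06 from the median MA/MyJ response and 0.05 from the difference.

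The drug changed more genes in NZW/LacJ than in MA/MyJ by count, with the same number of animals in each. In NZW/LacJ 4078 genes passed (32.7%), 2747 higher and 1331 lower. In MA/MyJ 1504 genes passed (12.1%), 1017 higher and 487 lower. Leaving out the treated MA/MyJ animal 3 took that count to 889. Of the 1278 genes with a different response, 940 (73.6%) passed in NZW/LacJ and not in MA/MyJ, 685 of them raised and 255 lowered in NZW/LacJ. Another 159 passed in MA/MyJ alone, 70 passed in both strains in opposite directions, 64 in both in the same direction and 45 in neither. Conversely, 893 genes passed in both responses, and the difference between strains passed for 134 of them. In absolute size, the called differences had a median of 0.57 for the higher genes and 0.58 for the lower ones, and 112 and 54 of them exceeded 1 log2 unit.

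These counts depend on whose spread is used. When the spread was estimated over all 31 arrays, 357 genes passed, 354 of them among the 1278, and when it was estimated over 30 arrays, without the treated WSB/EiJ animal 3, whose array was in doubt as to its label, 726 passed. Of the 121 called genes that the naming rule or the gene lists hold, 35 kept the call with 31 arrays and 55 with 30. Counts of list members called below stand against the 10.2% of all tested genes that passed, 7.05% higher and 3.19% lower. For each group of genes below, the calls that held are named.

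**Figure D1:**
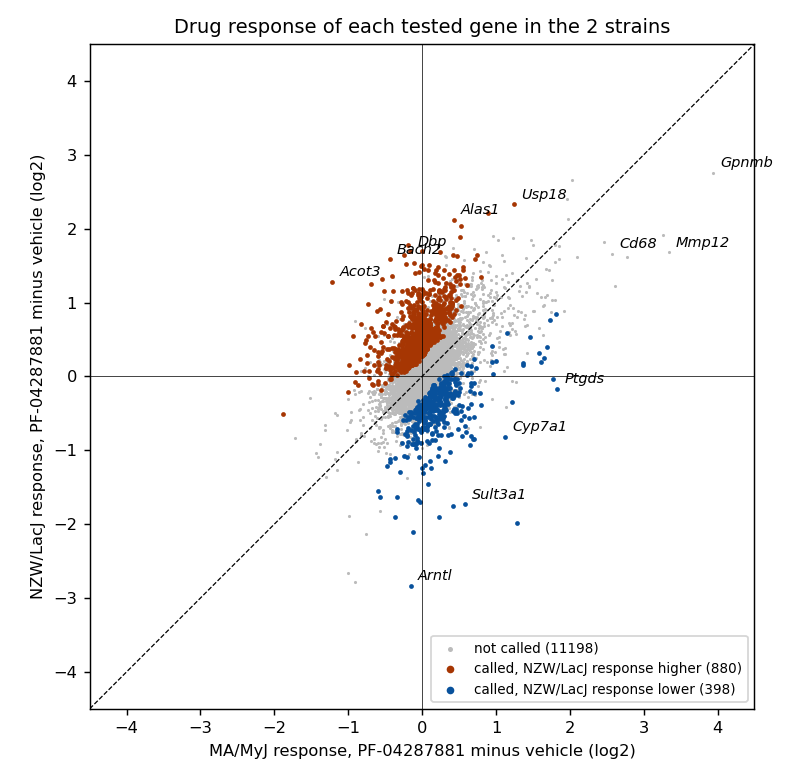
Each point is 1 of the 12476 tested genes, with its response to PF-04287881 in MA/MyJ on the horizontal axis and in NZW/LacJ on the vertical axis, both in log2 units, and the dashed line marks equal responses. The 880 genes with a higher NZW/LacJ response lie above the line and the 398 with a lower one below it, while the macrophage genes Gpnmb, Mmp12 and Cd68 lie far out along the positive side in both strains.

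The genes with the largest differences of response are described first. Below, values of the animals of a group are given in the order of their numbers, 1 to 4, and ± marks the standard error of the model. Treated and vehicle animals did not overlap for 34.6% of all tested genes in NZW/LacJ and for 17.1% in MA/MyJ. Statements below that treated animals lay apart from vehicle animals stand against these shares. Acot3, a peroxisomal acyl-CoA thioesterase, had the largest positive difference. Its values were 11.47, 11.81, 10.77 and 11.62 in MA/MyJ vehicle animals and 10.69, 10.30, 10.27 and 9.56 in treated ones. In NZW/LacJ they were 10.80, 11.15, 10.63 and 11.03 with vehicle and 11.60, 12.48, 12.05 and 12.62 with the drug. Treated animals lay below every vehicle animal in MA/MyJ and above every vehicle animal in NZW/LacJ. The responses were -1.21 and 1.28, and the difference was 2.50 ± 0.37 (adjusted p = 0.00101).

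Bach2, a transcriptional repressor best known in lymphocytes, also moved in opposite directions. Its MA/MyJ values were 8.25, 8.65, 8.26 and 8.50 with vehicle and 8.13, 7.65, 8.04 and 8.09 with the drug. In NZW/LacJ it had 6.0, 5.97, 6.25 and 6.18 with vehicle and 7.62, 7.61, 7.85 and 7.68 with the drug. NZW/LacJ minus MA/MyJ was thus -2.32 in vehicle animals and -0.29 in treated ones, and treated animals lay above all vehicle animals in NZW/LacJ and below them in MA/MyJ. The difference of response was 2.03 ± 0.16 (adjusted p = 7.88e-06), and a second probe set of the gene gave 2.11.

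Tgm1, a transglutaminase that cross-links proteins, responded in NZW/LacJ alone. All 12 other animals lay between 6.15 and 7.19, and the treated NZW/LacJ animals had 8.56, 8.71, 8.69 and 8.35, without overlap. Its difference was 1.97 ± 0.22 (adjusted p = 0.000169). Tmtc4, an endoplasmic reticulum protein of the O-mannosylation machinery, fell by 0.69 in MA/MyJ and rose by 1.24 in NZW/LacJ, where vehicle animals had 6.80, 6.62, 6.95 and 7.05 and treated animals 8.41, 8.17, 7.54 and 8.28. Il1rn, the natural antagonist of the interleukin-1 receptor, had values of 8.00, 8.15, 7.30 and 7.93 in NZW/LacJ vehicle animals and 9.19, 9.77, 9.20 and 9.77 in treated ones. Its MA/MyJ groups overlapped, at 9.44, 9.44, 7.98 and 9.82 against 8.27, 9.29, 9.16 and 8.98, and the difference of response was 1.88 ± 0.47 (adjusted p = 0.0195). Other probe sets gave smaller differences for these genes, 0.71 for Tmtc4 and 0.79 and 0.87 for Il1rn.

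Arntl, which encodes the clock activator BMAL1, had the largest negative difference among genes with an established name. Its MA/MyJ values were 9.83, 9.92, 9.74 and 9.86 with vehicle and 9.85, 9.66, 9.75 and 9.47 with the drug, so the groups overlapped. In NZW/LacJ vehicle animals had 9.29, 9.15, 9.32 and 8.92 and treated animals 6.37, 5.97, 6.32 and 6.71, and it fell by 2.83, with all 4 treated animals far below the vehicle range. The difference of response was -2.68 ± 0.18 (adjusted p = 2.45e-06). A second probe set of Arntl gave a difference of 0.01, so the result rests on 1 of the gene's probe sets.

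Sult3a1, a liver sulfotransferase, had 12.15, 11.94, 12.31 and 11.78 in NZW/LacJ vehicle animals and 9.61, 10.77, 11.05 and 9.85 in treated ones. The MA/MyJ groups overlapped, at 12.39, 12.03, 11.01 and 12.77 against 12.67, 12.82, 12.95 and 12.09, and the difference was -2.31 ± 0.50 (adjusted p = 0.00889). Abca6, a lipid transporter of the ABC family, had 9.72, 10.16, 9.60 and 9.58 in NZW/LacJ vehicle animals against 7.65, 7.65, 8.62 and 8.14 in treated ones. MA/MyJ animals had 8.78, 8.96, 9.21 and 8.59 with vehicle and 9.53, 9.65, 9.32 and 8.70 with the drug. Only the NZW/LacJ groups stood apart for these genes, and the difference for Abca6 was -2.16 ± 0.33 (adjusted p = 0.00116).

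Ptgds, which makes prostaglandin D2, differed through MA/MyJ. Its MA/MyJ values rose from 8.53, 8.16, 8.36 and 8.90 to 10.05, 10.51, 10.84 and 9.84, while the NZW/LacJ groups overlapped, at 11.54 to 12.33 with vehicle and 11.45 to 12.14 with the drug. The difference was -2.0 ± 0.33 (adjusted p = 0.00183). Rprd2, which binds RNA polymerase II, had a difference of -2.12 ± 0.31 (adjusted p = 0.000887) with NZW/LacJ values of 10.22, 10.46, 10.19 and 10.24 against 8.45, 8.15, 8.96 and 7.95. In MA/MyJ it had 9.39, 9.70, 9.97 and 9.02 against 10.03, 9.87, 9.77 and 9.30. The gene's other probe sets gave -0.17 to 0.08, so only 1 probe set carries it.

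**Figure D2:**
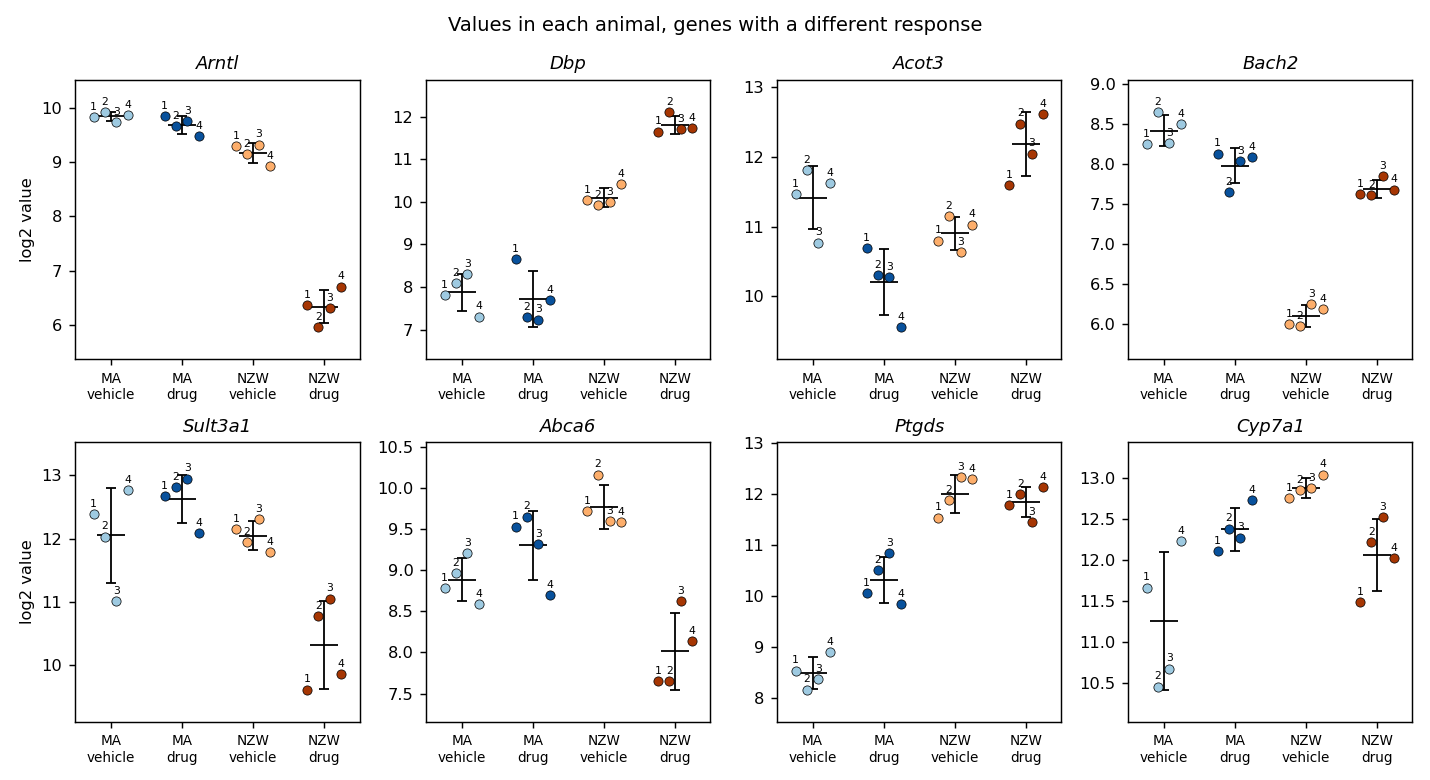
Each panel shows 1 gene, with the log2 value on the vertical axis, 1 numbered point per animal, and a bar with whiskers for the mean and SD of the 4 animals in each strain and treatment group. Arntl fell to between 5.97 and 6.71 in treated NZW/LacJ animals alone, Acot3 moved in opposite directions in the strains, and Ptgds rose in treated MA/MyJ animals alone.

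The other genes among the 15 largest positive differences had differences of 1.55 to 1.86. They were Pcp4l1 (1.86), the clock output factor Dbp (1.86), Ranbp3l (1.77), the ceramide synthase Cers6 (1.74), Rnf186 (1.70), the small Maf factor Maff (1.70), Alas1 (1.69), the coenzyme Q carrier Coq10b (1.67), Sntg2 (1.65) and the DNA repair dioxygenase Alkbh2 (1.55). All passed in NZW/LacJ in the positive direction, and of these 10 genes Pcp4l1 alone also fell in MA/MyJ, by 0.55. Ranbp3l was dim, with a mean of 6.14 over the 16 arrays. It exceeded the cut-off for dim genes, the median of all values, in 4 arrays, the fewest with which a gene was tested. The other negative differences were those of the drug-inducible P450 Cyp2b10 (-1.98), the bile acid enzyme Cyp7a1 (-1.94), the trefoil peptide Tff3 (-1.81), the mitochondrial protease subunit Clpx (-1.67) and the P450 Cyp3a44 (-1.62), followed by Arl2bp (-1.57), Phlda1 (-1.56), Zfp810 (-1.55), Tspyl4 (-1.54) and Asap2 (-1.54). Tff3 was at 6.74 to 7.11 in both NZW/LacJ groups and rose in MA/MyJ from 6.85, 6.99, 7.19 and 6.80 to 8.03, 8.98, 8.20 and 9.72. Clpx had 12.17, 12.26, 12.19 and 12.12 in NZW/LacJ vehicle animals against 10.60, 10.41, 10.80 and 10.11 in treated ones, and MA/MyJ animals stayed between 12.37 and 12.62. Its second probe set gave a smaller difference of -0.37. Arl2bp, which binds a small GTPase of the ARL family, fell by 0.93 in NZW/LacJ and rose by 0.64 in MA/MyJ, and Zfp810 likewise moved by -0.84 and 0.70.

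Of these 30 genes, 22 kept their calls with the spread of both 31 and 30 arrays. Alas1 and Cyp2b10 kept theirs with 30 arrays alone, and Dbp, Rnf186, Maff, Sult3a1, Cyp7a1 and Phlda1 lost theirs with either. Without NZW/LacJ vehicle animal 1 or 2, Tspyl4 lost its call.

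Genes of the circadian clock differed in both directions, and nearly all of the change lay in NZW/LacJ. In the clock, BMAL1 pairs with CLOCK or NPAS2 and binds E-box sequences to switch on Per, Cry and Nr1d1 genes and the output factors Dbp and Tef, while NR1D1 represses Arntl. Of 19 clock genes tested, 5 had a higher NZW/LacJ response and 3 a lower one, against 7.05% and 3.19% of all tested genes, and the median difference was 0.53 against 0.02 over all. In NZW/LacJ 10 of the 19 rose and 5 fell, where 22.0% and 10.7% of all tested genes did. In MA/MyJ none rose and 2 fell, where 8.15% and 3.90% did.

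The genes of the activators Arntl, Clock and Npas2 were the 3 with a lower response. Npas2, the partner that can stand in for CLOCK, had 6.63, 6.67, 6.63 and 6.59 in NZW/LacJ vehicle animals and between 5.51 and 6.01 in treated ones. Clock had 9.07, 9.02, 9.17 and 9.11 against 8.55, 8.38, 8.23 and 8.35. In both genes every treated NZW/LacJ animal lay below every vehicle animal, while the MA/MyJ groups overlapped, and the differences of response were -1.04 ± 0.27 (adjusted p = 0.0242) for Npas2 and -0.75 ± 0.10 (adjusted p = 0.000649) for Clock.

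The 5 genes with a higher response were Dbp, Usp2, Per3, Tef and Ciart. Dbp, a PAR-domain factor that binds D-box sequences, had 10.05, 9.92, 10.00 and 10.42 in NZW/LacJ vehicle animals and 11.65, 12.11, 11.70 and 11.73 in treated ones. In MA/MyJ it had 7.81, 8.09, 8.30 and 7.31 with vehicle and 8.65, 7.30, 7.24 and 7.69 with the drug. The strains were thus more than 2 log2 units apart in Dbp before the drug and about 4 apart with it (2.22 and 4.08 by the fit), and the difference of response was 1.86 ± 0.37 (adjusted p = 0.00578).

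Per3, a period gene of the repressor arm, had 8.38, 8.27, 8.42 and 8.42 against 8.90, 9.61, 9.60 and 9.39 in NZW/LacJ. MA/MyJ animals had 6.90, 7.11, 7.34 and 6.87 with vehicle and 7.30, 6.79, 6.61 and 6.74 with the drug, and the difference was 1.20 ± 0.23 (adjusted p = 0.00456), with other probe sets between 0.11 and 0.80. Usp2, a deubiquitinase with a strong daily rhythm, had 9.59, 9.54, 9.89 and 9.85 against 10.47, 11.01, 10.98 and 11.14 in NZW/LacJ, and its difference was 1.23 ± 0.27 (adjusted p = 0.00963). Treated and vehicle NZW/LacJ animals did not overlap for either gene, as was so for 34.6% of all tested genes. Tef, a second PAR-domain factor, and Ciart, a repressor of the BMAL1 and CLOCK pair, had differences of 0.97 ± 0.27 (adjusted p = 0.0352) and 0.84 ± 0.21 (adjusted p = 0.0175).

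RefSeq sequences of build GRCm38.p6 show the letters of clock elements before the start of 3 of these genes. They are printed in the gene's orientation, 60 bases each, with the D-box (TTANGTAA) or E-box (CACGTG) in capitals. Per3 is on the minus strand at chr4:151044836-151044895 with 1 of its 2 matches, 197 bases before the annotated start. Ciart is on the minus strand at chr3:95882310-95882369 with 1 of its 3 matches, at 110 bases, and Tef on the plus strand at chr15:81802521-81802580 with its single match at 121 bases.
Per3 D-box: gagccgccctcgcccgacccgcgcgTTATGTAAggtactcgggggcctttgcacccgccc
Ciart E-box: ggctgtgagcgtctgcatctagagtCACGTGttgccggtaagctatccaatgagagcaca
Tef E-box: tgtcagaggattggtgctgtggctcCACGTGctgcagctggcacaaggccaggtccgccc

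On either strand of the 250 bases before the start, the E-box letters stood in 4 of 17 clock genes with a promoter in the table and in 9.73% of 10084 tested genes, and the D-box letters in 1 of the 17 and in 1.71%. Among genes with a higher NZW/LacJ response the shares were 11.4% and 2.90%, and among those with a lower one 10.0% and 2.81%. A match describes letters and not a bound site.

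Of the 8 calls, Arntl and Clock held with the spread of 31 arrays, Arntl, Clock, Npas2 and Per3 held with 30, and Dbp, Usp2, Tef and Ciart with neither. Tef lost its call without any 1 of 10 animals and Npas2 without treated MA/MyJ animal 3. Leaving out single animals gave 4 to 7 clock genes with a higher NZW/LacJ response and 2 or 3 with a lower one.

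**Figure D3:**
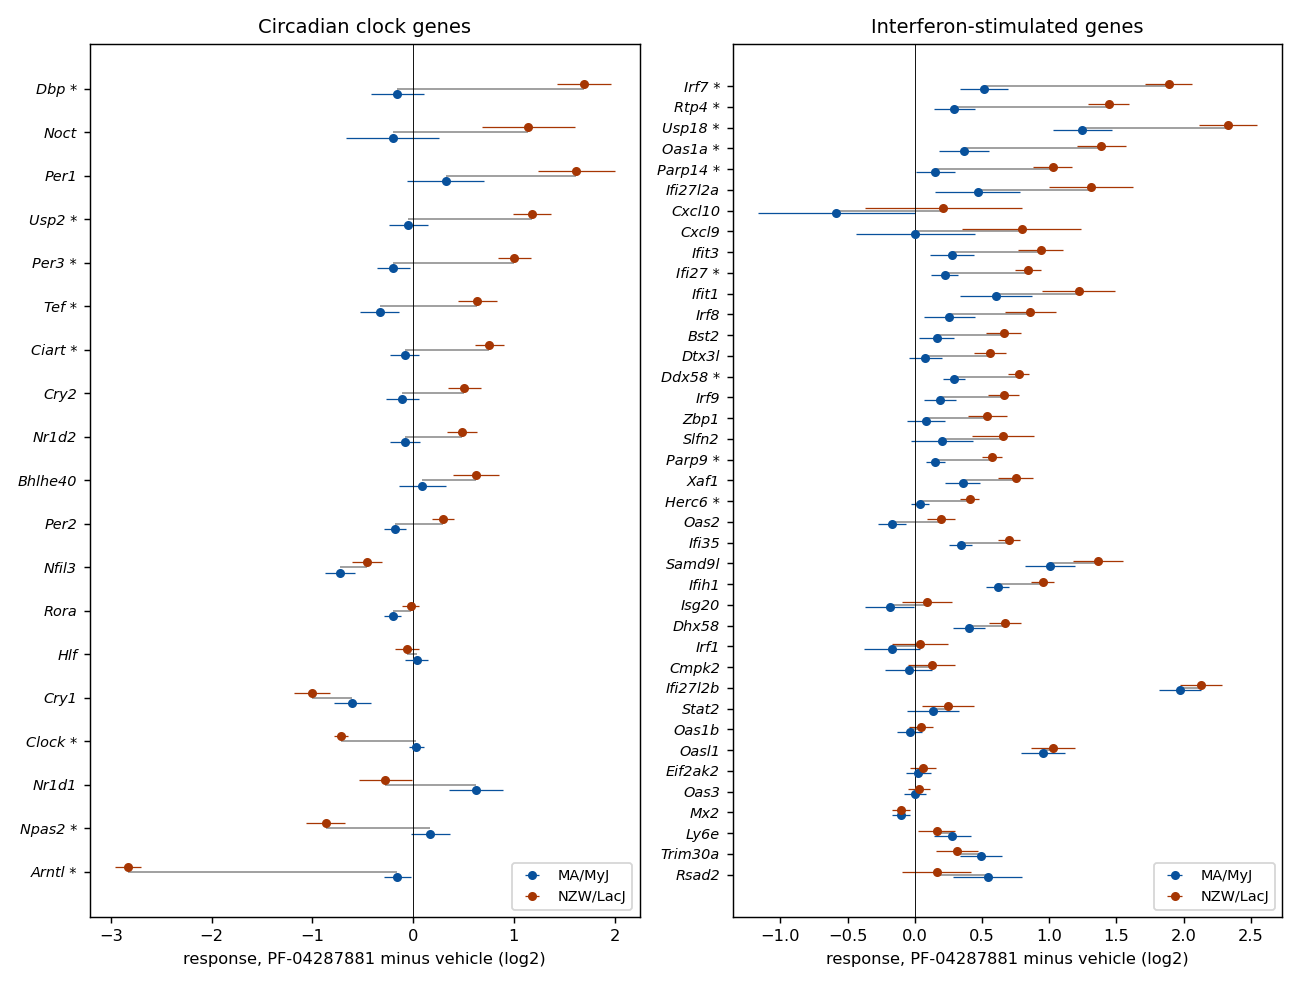
Points show the response to PF-04287881 in log2 units, with bars of 1 standard error of the model, for 19 clock genes on the left and 39 interferon-stimulated genes on the right, in MA/MyJ and NZW/LacJ, and an asterisk marks a difference of response that passed. Clock genes spread to both sides in NZW/LacJ and stay near 0 in MA/MyJ, whereas interferon-stimulated genes lie to the right in NZW/LacJ.

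Interferon-stimulated genes rose in more cases in NZW/LacJ. These genes are switched on by interferon signalling and encode antiviral enzymes and sensors. Of 39 tested, 9 had a higher NZW/LacJ response and none a lower one, where 7.05% and 3.19% of all tested genes did, and the median difference was 0.39 against 0.02 over all. In NZW/LacJ 25 of 39 rose, against 22.0% of all genes, and in MA/MyJ 8 of 39 rose, against 8.15%. No member fell in either strain, and the list's median responses were 0.66 and 0.22.

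Irf7, the transcription factor that amplifies interferon signalling, had NZW/LacJ values of 7.38, 7.72, 7.70 and 7.63 with vehicle and 9.84, 9.29, 8.99 and 9.86 with the drug. In MA/MyJ they were 7.35, 8.04, 7.81 and 7.80 with vehicle and 8.17, 8.17, 8.27 and 8.46 with the drug. Treated animals lay above vehicle animals in both strains, by far more in NZW/LacJ, and the difference was 1.37 ± 0.25 (adjusted p = 0.00346).

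Oas1a, an enzyme that makes the activator of the antiviral RNase L, had 7.20, 7.20, 7.28 and 7.30 against 9.16, 8.40, 7.98 and 8.99 in NZW/LacJ. In MA/MyJ it had 7.36, 7.34, 7.29 and 7.22 against 7.53, 7.49, 7.87 and 7.77, and the difference was 1.02 ± 0.26 (adjusted p = 0.0218). Animals 1 and 4 were the highest of the treated NZW/LacJ animals for both Irf7 and Oas1a. Rtp4, a chaperone of receptor transport, had a difference of 1.15 ± 0.21 (adjusted p = 0.00362). Usp18, which removes the ubiquitin-like modifier ISG15, rose by 2.33 in NZW/LacJ and by 1.25 in MA/MyJ, a difference of 1.09 ± 0.31 (adjusted p = 0.0355).

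The other members called were Parp14 (0.87), Ifi27 (0.62), the RNA sensor Ddx58 (0.48), Parp9 (0.42) and Herc6 (0.37). Of 9 interferon-inducible GTPases, 1 passed. It was Gbp7, which had 6.14, 6.31, 6.12 and 6.13 in NZW/LacJ vehicle animals and 8.35, 8.41, 7.80 and 8.29 in treated ones, a difference of 1.52 ± 0.45 (adjusted p = 0.0417), with a second probe set at 0.59. Its MA/MyJ groups overlapped, at 6.74, 8.08, 6.59 and 7.45 against 7.90, 6.99, 7.51 and 8.57. Of 14 genes of MHC class I presentation and the immunoproteasome, 1 passed, the immunoproteasome subunit Psmb10 at 1.06 ± 0.26 (adjusted p = 0.0169), with 9.95, 9.97, 10.00 and 9.99 against 11.29, 11.15, 10.83 and 11.32 in NZW/LacJ.

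The promoters of Gbp7 and Oas1a carry the interferon-stimulated response element (ISRE, read here as GAAA, any pair of bases and GAAA), shown in capitals in RefSeq sequence of build GRCm38.p6. Gbp7 is on the plus strand at chr3:142530258-142530317 with the match 43 bases before the start, on the opposite strand to the gene. Oas1a is on the minus strand at chr5:120907526-120907585, with 1 of its 2 matches, at 10 bases, in capitals.
Gbp7 ISRE: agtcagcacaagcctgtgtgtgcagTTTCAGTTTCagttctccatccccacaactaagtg
Oas1a ISRE: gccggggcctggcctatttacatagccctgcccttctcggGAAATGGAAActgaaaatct

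These letters stood, on either strand, in 9 of 26 interferon-stimulated genes with a promoter in the table and in 3.06% of 10084 tested genes. Of the 4 called members with a promoter there, 1 had them.

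Psmb10 kept its call with 31 and 30 arrays and Gbp7 with 30, while no interferon-stimulated gene passed with 31 and Parp14 alone with 30. Herc6 lost its call without MA/MyJ vehicle animal 2, treated MA/MyJ animal 3 or NZW/LacJ vehicle animals 2 or 4. Leaving out single animals gave 7 to 14 interferon-stimulated genes with a higher response, and it was 14 without treated NZW/LacJ animal 3. The calls of Usp18 and Gbp7 were lost without any 1 of 9 and any 1 of 12 of the 16 animals.

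In drug and heme metabolism the strains differed in single genes and in both directions. The nuclear receptors CAR and PXR sense foreign compounds and control P450 enzymes, conjugating enzymes, exporters and Alas1, the rate-limiting enzyme of heme synthesis. Of 35 genes tested, 3 had a higher NZW/LacJ response and 5 a lower one, against 7.05% and 3.19% of all genes, and the median difference was -0.11. Alas1 had NZW/LacJ values of 10.55, 11.25, 10.93 and 10.80 with vehicle and 13.01, 12.90, 13.14 and 12.96 with the drug, a difference of response of 1.69 ± 0.31 (adjusted p = 0.00377). The MA/MyJ groups overlapped, at 11.30 to 12.63 with vehicle and 12.20 to 12.70 with the drug.

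Cyp2b10, a classic target of CAR, had 9.05, 9.56, 8.66 and 9.13 in NZW/LacJ vehicle animals and 6.72, 7.61, 6.97 and 6.69 in treated ones. MA/MyJ animals had 12.23, 11.18, 12.56 and 11.48 with vehicle and 11.08, 12.95, 11.18 and 11.72 with the drug, with wide overlap. The difference was -1.98 ± 0.54 (adjusted p = 0.0294). Cyp3a44 had 10.13, 9.74, 9.81 and 9.0 against 7.58, 8.01, 8.43 and 7.94 in NZW/LacJ. MA/MyJ animals lay between 6.91 and 7.63 in both groups. Of the treated NZW/LacJ animals, animal 1 alone fell into that range, and the others stayed above it. The MA/MyJ range is close to the cut-off of 6.48 for dim genes. Whether this low level limited a fall in MA/MyJ was not tested. The difference for Cyp3a44 was -1.62 ± 0.32 (adjusted p = 0.00482).

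Gstm2, a glutathione transferase, rose by 0.53 in NZW/LacJ and by 1.46 in MA/MyJ, a difference of -0.93 ± 0.27 (adjusted p = 0.0375). Its MA/MyJ values went from 6.25, 6.57, 6.86 and 6.49 to 7.66, 8.43, 7.94 and 8.00. The call of Cyp2b10 was lost without MA/MyJ vehicle animal 2 or 4, NZW/LacJ vehicle animal 1 or 2 or treated NZW/LacJ animal 1 or 4, and that of Gstm2 without any 1 of 12 animals and with 31 or 30 arrays. The other members called were Gstm1 (0.61), Abcc3 (0.50), Sult1d1 (-0.63) and Aldh1a7 (-0.53). Gstm1, Cyp3a44 and Sult1d1 held with 31 and 30 arrays, and Alas1, Abcc3 and Cyp2b10 with 30. Aldh1a7 held with neither and lost its call without any 1 of 13 animals.

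Among bile acid genes, 2 synthesis enzymes and 3 transporters differed. Of 26 tested, 2 had a higher NZW/LacJ response, near the 7.05% of all genes, and 3 a lower one, against 3.19%, with a median of -0.08. Cyp7a1, the rate-limiting enzyme of bile acid synthesis, had 12.75, 12.85, 12.88 and 13.04 in NZW/LacJ vehicle animals and 11.48, 12.22, 12.52 and 12.02 in treated ones. In MA/MyJ the vehicle animals ranged widely, at 11.66, 10.45, 10.67 and 12.23, and the treated ones had 12.11, 12.38, 12.27 and 12.73. The response of 1.12 in MA/MyJ passed (adjusted p = 0.0298), that of -0.82 in NZW/LacJ did not (adjusted p = 0.0553), and the difference was -1.94 ± 0.44 (adjusted p = 0.0118).

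Cyp27a1, which starts the alternative route, had 12.83, 12.82, 12.88 and 12.90 against 12.18, 12.27, 12.03 and 12.33 in NZW/LacJ. MA/MyJ animals lay between 12.58 and 12.90 in both groups, and the difference was -0.74 ± 0.11 (adjusted p = 0.000994). Slc51b, a subunit of the basolateral bile acid exporter, rose by 0.44 in MA/MyJ and had a difference of -0.51 ± 0.11 (adjusted p = 0.00771). Abcc4, another basolateral exporter, had 6.38, 6.49, 6.37 and 5.80 against 7.53, 7.17, 7.63 and 7.42 in NZW/LacJ and a difference of 1.04 ± 0.21 (adjusted p = 0.00558), and the exporter Abcc3 a difference of 0.50. Of these, the call of Cyp27a1 held with 31 and 30 arrays and that of Abcc3 with 30, and those of Cyp7a1, Slc51b and Abcc4 were lost with both.

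In sterol and fat synthesis 5 genes differed, about the share of all genes (10.2%). Of 20 genes of cholesterol synthesis and uptake, 1 had a higher and 2 a lower NZW/LacJ response, with a median of -0.03, and of 26 lipogenic genes none had a higher and 2 a lower one, with a median of -0.18. Dhcr7, the last enzyme of cholesterol synthesis, rose in MA/MyJ from 8.01, 8.07, 8.02 and 8.12 to 9.49, 9.77, 9.55 and 9.73. In NZW/LacJ it had 9.49, 9.46, 8.92 and 9.22 with vehicle and 10.64, 9.0, 9.22 and 9.50 with the drug, so animal 1 alone stood above the vehicle range by more than 1 log2 unit. The difference was -1.26 ± 0.35 (adjusted p = 0.034). The same animal stood apart over the whole cholesterol list, with a median member response of 1.48, against -0.26, -0.06 and 0.33 in the other treated NZW/LacJ animals and 0.20 to 0.39 in the treated MA/MyJ animals.

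Tm7sf2, a sterol reductase, fell by 0.55 in NZW/LacJ and rose by 0.71 in MA/MyJ, a difference of -1.25 ± 0.26 (adjusted p = 0.00634). Fdft1, squalene synthase, had a difference of 1.04 ± 0.29 (adjusted p = 0.0343), but its other probe sets gave -0.14 to 0.84. Among lipogenic genes, Insig2, which holds the sterol sensor in the endoplasmic reticulum, had 13.54, 13.57, 13.56 and 13.45 against 12.96, 12.66, 12.94 and 12.61 in NZW/LacJ and a difference of -0.93 ± 0.11 (adjusted p = 0.000281). Agpat2, an acyltransferase of triglyceride synthesis, had 12.81, 12.82, 12.87 and 12.84 against 11.69, 12.11, 12.02 and 12.01 and a difference of -0.94 ± 0.14 (adjusted p = 0.00124). Neither gene's response passed in MA/MyJ. Insig2 kept its call with 31 and 30 arrays and Agpat2 with 30. Dhcr7, Tm7sf2 and Fdft1 lost theirs with both, and without any 1 of 13 animals for Dhcr7 and any 1 of 8 for Fdft1.

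Genes of fatty acid oxidation under PPAR alpha, the fasting-activated lipid sensor, had a median difference of 0.04. Of 35 tested, 3 had a higher NZW/LacJ response, near the 7.05% of all genes, and none a lower one, against 3.19%. Besides Acot3 they were its neighbour in function Acot4, which fell by 0.99 in MA/MyJ with a difference of 1.15 ± 0.29 (adjusted p = 0.0207), and Ppara itself at 0.58 ± 0.15 (adjusted p = 0.0252). Acot3 held with 31 and 30 arrays, Acot4 with 30, and Ppara with neither. Ppara also lost its call without treated MA/MyJ animal 2 or 3 or NZW/LacJ vehicle animal 2.

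Protein folding genes differed in both directions. Of 18 heat shock proteins and co-chaperones, 3 had a higher NZW/LacJ response and none a lower one, with a median difference of 0.21. Of 25 genes of the unfolded protein response, which serves the endoplasmic reticulum, none had a higher and 5 a lower NZW/LacJ response, with a median of -0.28. The background shares were 7.05% higher and 3.19% lower, and 16 of the 18 and 2 of the 25 differences were positive where 53.9% of all genes were. In vehicle animals 9 of the 18 heat shock genes were lower in NZW/LacJ than in MA/MyJ and 1 was higher. The shares of all genes were 22.1% and 13.8%.

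Hsph1, a large cytosolic chaperone, had 9.66, 9.56, 8.77 and 9.32 in NZW/LacJ vehicle animals and 10.14, 10.10, 9.77 and 10.10 in treated ones. In MA/MyJ it had 10.76, 10.58, 10.19 and 11.45 against 9.62, 10.41, 9.86 and 9.78, where animal 2 of the treated group overlapped with the vehicle group. Both responses passed, in opposite directions, and the difference was 1.53 ± 0.34 (adjusted p = 0.0104). Dnajb1, a co-chaperone, had a difference of 0.70 ± 0.20 (adjusted p = 0.0409) through a fall of 0.72 in MA/MyJ. Hspa8, the constitutive cytosolic chaperone, had one of 0.34 ± 0.10 (adjusted p = 0.0499), and its other probe sets gave -0.05 to 0.46.

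Manf, a secreted factor induced by stress of the endoplasmic reticulum, had 11.22, 11.55, 11.26 and 11.30 against 10.84, 10.45, 10.63 and 9.97 in NZW/LacJ. Its MA/MyJ groups overlapped, at 10.07, 10.54, 10.29 and 10.92 against 10.53, 10.88, 10.39 and 10.55, and the difference was -0.99 ± 0.26 (adjusted p = 0.0258). Syvn1, the ubiquitin ligase that clears misfolded proteins from that compartment, had a difference of -0.80 ± 0.20 (adjusted p = 0.0206; -0.36 by a second probe set), the co-chaperone Sdf2l1 one of -0.73 ± 0.21 (adjusted p = 0.0398) and the co-chaperone Dnajb11 one of -0.45 ± 0.11 (adjusted p = 0.0194). Dnajc3 was the remaining member called, at -0.35. NZW/LacJ vehicle animals were the higher strain for these genes before the drug, by 0.26 to 0.88 for the 4 named first.

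Hsph1 kept its call with 30 arrays, and no other call of these 2 lists held with 31 or 30. The heat shock count fell to 1 without treated MA/MyJ animal 3, NZW/LacJ vehicle animals 1, 2 or 4 or treated NZW/LacJ animals 1 or 2. The unfolded protein response count was 3 without MA/MyJ vehicle animal 2, treated MA/MyJ animals 1, 2 or 3, NZW/LacJ vehicle animal 1 or treated NZW/LacJ animal 4, 2 without NZW/LacJ vehicle animal 2, and 9 without MA/MyJ vehicle animal 4 or with centred arrays. Calls were lost without any 1 of 10 animals for Dnajb1 and Sdf2l1, any 1 of 11 for Dnajc3 and any 1 of 13 for Hspa8, and without treated MA/MyJ animal 2 or NZW/LacJ vehicle animal 2 for Manf.

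Antioxidant genes under NRF2, the sensor of electrophiles, differed in 10 of 30 members, 8 with a higher and 2 with a lower NZW/LacJ response where 7.05% and 3.19% of all genes did, and the median was 0.13. With arrays centred on their medians 4 were higher and 4 lower. Aox1, aldehyde oxidase, had 9.46, 9.11, 9.41 and 9.73 against 10.39, 9.80, 9.69 and 10.01 in NZW/LacJ and 10.00, 10.24, 9.98 and 10.19 against 9.38, 9.44, 9.44 and 9.58 in MA/MyJ. It rose in the first strain and fell in the second, and the difference was 1.19 ± 0.20 (adjusted p = 0.00208). Hmox1, the heme-degrading enzyme, went the other way at -1.19 ± 0.31 (adjusted p = 0.0238), though neither strain's response passed. In NZW/LacJ it had 9.75, 9.79, 9.38 and 9.32 against 9.23, 8.72, 8.39 and 9.66, and in MA/MyJ 8.65, 8.97, 8.83 and 8.67 against 9.20, 9.15, 9.72 and 9.58. Besides Abcc4 and Gstm2, the members called were Gstp1 (0.74), Gstm1 (0.61), Cbr1 (0.54), Ephx1 (0.54), Abcc3 (0.50) and Txnrd1 (0.49).

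Of 23 integrated stress response and amino acid synthesis genes, 2 had a higher response (7.05% of all genes) and none a lower one (3.19%). They were Vldlr, a lipoprotein receptor, at 1.35 ± 0.30 (adjusted p = 0.00995), and the serine synthesis enzyme Psph at 0.39 ± 0.10 (adjusted p = 0.0189). Vldlr rose by 0.66 in NZW/LacJ and fell by 0.69 in MA/MyJ, and it exceeded the cut-off for dim genes in 5 arrays. Of these NRF2 and stress genes, Gstm1 held with 31 arrays and Gstm1 and Abcc3 with 30, and no other call did. Cbr1, Gstm1, Txnrd1 and Ephx1 lost theirs without any 1 of 8, 10, 13 and 14 animals. The count of higher NRF2 members was 4 without MA/MyJ vehicle animal 2, treated MA/MyJ animal 3 or NZW/LacJ vehicle animal 4 and 5 without NZW/LacJ vehicle animals 1, 2 or 3. Hmox1 lost its call without NZW/LacJ vehicle animal 1 or 2.

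Cell death genes differed in 3 cases, all in the apoptosis list. Of 20 tested genes of necroptosis, pyroptosis and ferroptosis, none passed in the difference of response, with a median of 0.18, although 10 rose in NZW/LacJ and 2 in MA/MyJ (22.0% and 8.15% of all genes). The median member response of this list was 0.29, 0.20, 0.28 and 0.24 in the treated NZW/LacJ animals and 0.08, 0.02, 0.07 and 0.13 in the treated MA/MyJ animals, without overlap. The clock, heat shock, unfolded protein response, mitochondrial ribosome and lipogenic lists did not overlap either. Each such value was taken against the vehicle mean of its strain, so the values of a strain are not independent responses. Mlkl, the pore-forming effector of necroptosis, had 6.29, 6.72, 6.56 and 6.77 in NZW/LacJ vehicle animals and 8.99, 7.77, 7.07 and 8.54 in treated ones. In MA/MyJ it had 6.79, 6.90, 6.40 and 6.95 against 6.28, 7.0, 7.92 and 7.14. It rose by 1.51 in NZW/LacJ and had a response of 0.33 in MA/MyJ, and the difference of 1.18 ± 0.50 did not pass (adjusted p = 0.155). The transferrin receptor Tfrc, the next gene of that list by size, had 0.55 ± 0.32 (adjusted p = 0.311).

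Of 23 p53 targets and apoptosis genes, 1 had a higher and 2 a lower NZW/LacJ response, against 7.05% and 3.19% of all genes. Bid, a death agonist of the BCL-2 family, rose in both strains, from 6.83, 7.11, 7.05 and 7.10 to 9.05, 8.47, 8.55 and 8.36 in NZW/LacJ and from 7.75, 7.65, 7.75 and 7.28 to 8.39, 8.09, 8.54 and 8.29 in MA/MyJ. Its responses were 1.59 and 0.72 and the difference 0.87 ± 0.20 (adjusted p = 0.0141), with a second probe set at 0.52. The exonuclease Aen had a difference of -0.52 ± 0.13 (adjusted p = 0.0233), and Cflar, an inhibitor of caspase-8, one of -0.49 ± 0.14 (adjusted p = 0.0409) with other probe sets from -1.52 to 0.33. Aen held with 30 arrays and not 31, and Bid and Cflar with neither. Without treated NZW/LacJ animal 3, 2 genes of the necroptosis list passed, 1 passed without MA/MyJ vehicle animal 4 or treated MA/MyJ animal 4, and Cflar lost its call without any 1 of 11 animals.

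Of 28 cytokine, chemokine and innate sensing genes, 1 passed, Il15, which supports natural killer and memory T cells. It had 5.17, 5.48, 5.88 and 5.73 against 6.75, 7.18, 6.76 and 6.86 in NZW/LacJ. The difference was 1.05 ± 0.27 (adjusted p = 0.0232), and this call was lost without NZW/LacJ vehicle animal 1. Il15 exceeded the cut-off for dim genes only in the treated NZW/LacJ arrays, so it entered the test through that group alone. Whether the low levels in the other groups affected the difference was not tested. Acute phase proteins are the plasma proteins that hepatocytes release in inflammation, and the median difference of the 27 tested was near 0. Among them 3 had a higher response and none a lower one, against 7.05% and 3.19% of all genes. Besides Il1rn these were Crp, C-reactive protein, with 12.49, 12.52, 12.71 and 12.77 against 13.38, 13.21, 13.24 and 13.11 in NZW/LacJ and a difference of 0.61 ± 0.10 (adjusted p = 0.00174), and Orm2, an orosomucoid, at 1.38 ± 0.38 (adjusted p = 0.0307). MA/MyJ animals stayed at 13.24 to 13.31 for Crp in both groups. Il15, Il1rn and Crp held with 31 and 30 arrays and Orm2 with neither. Orm2 also lost its call without MA/MyJ vehicle animal 2 or 3, treated MA/MyJ animal 3, NZW/LacJ vehicle animal 2 or 4 or treated NZW/LacJ animal 2.

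Macrophage genes rose strongly in both strains, and few of their differences of response passed. For the monocyte and macrophage markers the median difference was -0.31 against 0.02 over all genes. Of these 18 differences 4 were positive, where 53.9% of all genes were. Of 18 markers of monocytes and lipid-laden macrophages, 11 rose in MA/MyJ and 12 in NZW/LacJ (8.15% and 22.0% of all genes), with median responses of 1.56 and 1.22, and 1 differed between strains. Gpnmb, a membrane glycoprotein of macrophages with loaded lysosomes, had 5.11, 5.74, 5.50 and 5.63 against 8.52, 10.05, 10.66 and 8.51 in MA/MyJ and 5.95, 5.96, 5.80 and 5.90 against 9.98, 7.12, 7.69 and 9.85 in NZW/LacJ. Mmp12, macrophage elastase, had 4.66, 4.80, 4.80 and 4.65 against 7.86, 8.16, 9.04 and 7.21 in MA/MyJ. In NZW/LacJ its values were 4.99, 4.78, 4.93 and 4.64 against 8.21, 5.08, 5.19 and 7.58.

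All 4 treated MA/MyJ animals were thus far above vehicle for Mmp12, while among treated NZW/LacJ animals 1 and 4 were and 2 and 3 lay just above the vehicle range. The lysosomal membrane protein Cd68 had 9.81, 8.32, 7.90 and 10.09 in treated NZW/LacJ animals, and galectin-3, Lgals3, had 10.98, 8.97, 8.47 and 11.09. Both followed the same order of animals. The median member response of this list in the treated NZW/LacJ animals was 1.91, 0.80, 0.25 and 1.83, and in the treated MA/MyJ animals 0.98, 1.39, 1.93 and 1.73. The mean of the 18 markers lay between 8.18 and 8.38 in NZW/LacJ vehicle animals, 8.64 and 9.97 in treated ones, 7.96 and 8.26 in MA/MyJ vehicle animals and 9.34 and 10.2 in treated ones. The member called was Lpl, lipoprotein lipase, which rose in both strains, by 0.84 in NZW/LacJ and 1.82 in MA/MyJ, with a difference of -0.97 ± 0.24 (adjusted p = 0.0173) that did not hold with 31 or 30 arrays.

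**Figure D4:**
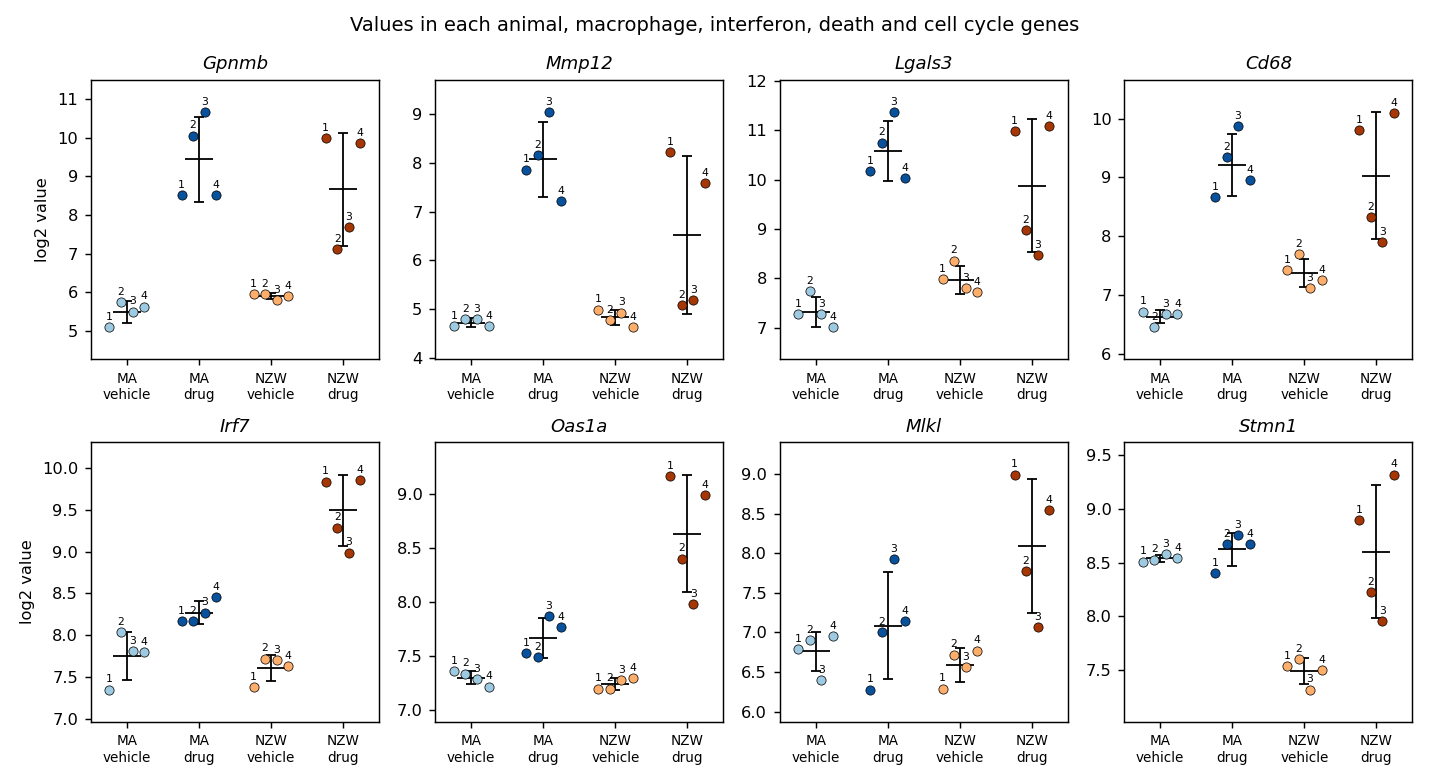
Each panel shows 1 gene, with the log2 value on the vertical axis, 1 numbered point per animal, and a bar with whiskers for the mean and SD of the 4 animals in each group. Treated NZW/LacJ animals 1 and 4 lie above animals 2 and 3 for each of these 8 genes, while treated MA/MyJ animals all lie above vehicle for Gpnmb, Mmp12, Lgals3 and Cd68.

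Animals 1 and 4 were also the higher treated NZW/LacJ animals for Irf7, Oas1a and Mlkl and for Stmn1, a tubulin-binding protein of dividing cells, which had 8.90, 8.23, 7.96 and 9.32. The values of Clpx, Alas1 and Bach2 given above did not set animals 1 and 4 apart from 2 and 3. Those of some metabolic genes did. Animals 1 and 4 were the lower for Sult3a1, Cyp7a1, Ppp1r3c and Gldc and the higher for Aox1. Whether the macrophage level has a part in the interferon differences was not tested. The interferon list's median member response was 0.92, 0.63, 0.35 and 0.75 in the treated NZW/LacJ animals and 0.23, 0.08, 0.24 and 0.40 in the treated MA/MyJ animals, whose macrophage list medians are those given above.

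Of 17 Kupffer cell markers, 5 rose in NZW/LacJ and 7 in MA/MyJ, with median responses of 0.64 and 0.84, where 22.0% and 8.15% of all genes rose. The median difference was -0.15, and 3 of the 17 differences were positive. The median member response of the treated NZW/LacJ animals was 0.94, 0.34, -0.23 and 1.46, so animal 3 lay below the vehicle mean. Between the strains 1 marker had a higher and 1 a lower NZW/LacJ response, Nr1h3 at 0.32 ± 0.08 (adjusted p = 0.0226) and Hmox1, given above. Nr1h3 held with 30 arrays and not with 31 or with centred arrays (adjusted p = 0.0609). Clec4f, a receptor specific to Kupffer cells, had 10.24, 10.55, 10.24 and 10.15 against 11.37, 11.01, 10.09 and 11.92 in NZW/LacJ and 9.95, 9.37, 9.65 and 9.81 against 10.27, 10.61, 11.03 and 10.66 in MA/MyJ. None of the 6 tested MHC class II genes differed. H2-Ab1, a class II chain, had 9.11, 8.52, 7.35 and 9.57 in treated NZW/LacJ animals and 8.14, 8.06, 9.17 and 9.82 in treated MA/MyJ animals, a difference of response of -0.81 ± 0.59 (adjusted p = 0.451).

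Lysosomal genes rose in both strains. Of 47 hydrolases and membrane proteins of the lysosome, 30 rose in NZW/LacJ and 24 in MA/MyJ, against 22.0% and 8.15% of all genes. None fell in either strain, and the median responses were 0.36 and 0.25. Between strains 5 had a higher and 1 a lower NZW/LacJ response, which is near the shares of all genes. Neu1, lysosomal sialidase, had 9.47, 9.33, 9.44 and 9.52 against 10.32, 10.05, 10.18 and 10.20 in NZW/LacJ and a difference of 0.47 ± 0.12 (adjusted p = 0.0185), with a second probe set at 0.17. Ids, a sulfatase, had 0.69 ± 0.13 (adjusted p = 0.00356), with a second probe set at 0.01. Acp2, lysosomal acid phosphatase, had 0.34 ± 0.09 (adjusted p = 0.0185), and Gm2a, a cofactor of ganglioside breakdown, 0.45 ± 0.14 (adjusted p = 0.0457), with a second probe set at 0.26.

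Of 15 subunits of the vacuolar proton pump, 1 passed, Atp6v1g1 at 0.46 ± 0.12 (adjusted p = 0.0278). Its second probe set gave 0.11, and the call was lost with the mean of all probe sets. Of 32 autophagy and nutrient sensing genes, 2 passed, Gabarapl1, a protein of the autophagosome membrane, at 0.62 ± 0.12 (adjusted p = 0.00408) and Fnip2, a regulator of lysosomal signalling, at 0.83 ± 0.24 (adjusted p = 0.0386). Ids held with 31 and 30 arrays, and Acp2 and Gabarapl1 with 30. Neu1, Gm2a, Atp6v1g1 and Fnip2 held with neither, and Gm2a and Fnip2 lost their calls without any 1 of 11 animals and Atp6v1g1 without MA/MyJ vehicle animal 1, treated MA/MyJ animals 1 or 2 or NZW/LacJ vehicle animals 2 or 3. Ctsz (0.29) and Ctsl (-0.27), the remaining lysosomal members called, held with neither and lost their calls without any 1 of 9 animals. The lysosomal count of higher members was 3 without treated MA/MyJ animal 3 or NZW/LacJ vehicle animals 1 or 2.

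Mitochondrial ribosome proteins differed in 10 of 76 members, each with a higher NZW/LacJ response where 7.05% of all genes had one, while none of 66 respiratory chain subunits passed in either direction. The median differences were 0.07 and -0.05 against 0.02 over all genes, and 49 of the 76 and 12 of the 66 differences were positive. In vehicle animals 32 of the 76 were lower in NZW/LacJ than in MA/MyJ and 4 were higher. The shares of all genes were 22.1% and 13.8%, and the same vehicle arrays enter the difference of response. Mrps6 had 9.07, 9.04, 9.12 and 9.14 against 10.11, 9.93, 9.76 and 10.19 in NZW/LacJ and a difference of 0.84 ± 0.21 (adjusted p = 0.019). Mrpl50 had 11.63, 11.76, 11.63 and 11.73 against 12.06, 12.05, 12.04 and 11.99 and a difference of 0.43 ± 0.09 (adjusted p = 0.00889). Mrpl14 and Mrpl49 had 0.48 ± 0.12 (adjusted p = 0.0156) and 0.39 ± 0.12 (adjusted p = 0.042). The largest respiratory chain difference, that of the complex I subunit Ndufb3, was -0.27 ± 0.25 (adjusted p = 0.57).

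With arrays centred on their medians, 4 mitochondrial ribosome genes had a higher response and 1 a lower one, where 686 and 553 of the 12476 genes did. With 31 arrays 2 passed, Mrps6 and Mrpl50, and with 30 arrays 4 did, these and Mrpl24 and Mrps14. Leaving out single animals gave 5 to 9 members. It was 5 without MA/MyJ vehicle animal 4 or NZW/LacJ vehicle animals 1, 2 or 4 and 6 without MA/MyJ vehicle animal 2, treated MA/MyJ animals 2 or 3, NZW/LacJ vehicle animal 3 or treated NZW/LacJ animal 3, and Mrpl49 lost its call without any 1 of 12 animals.

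**Figure D5:**
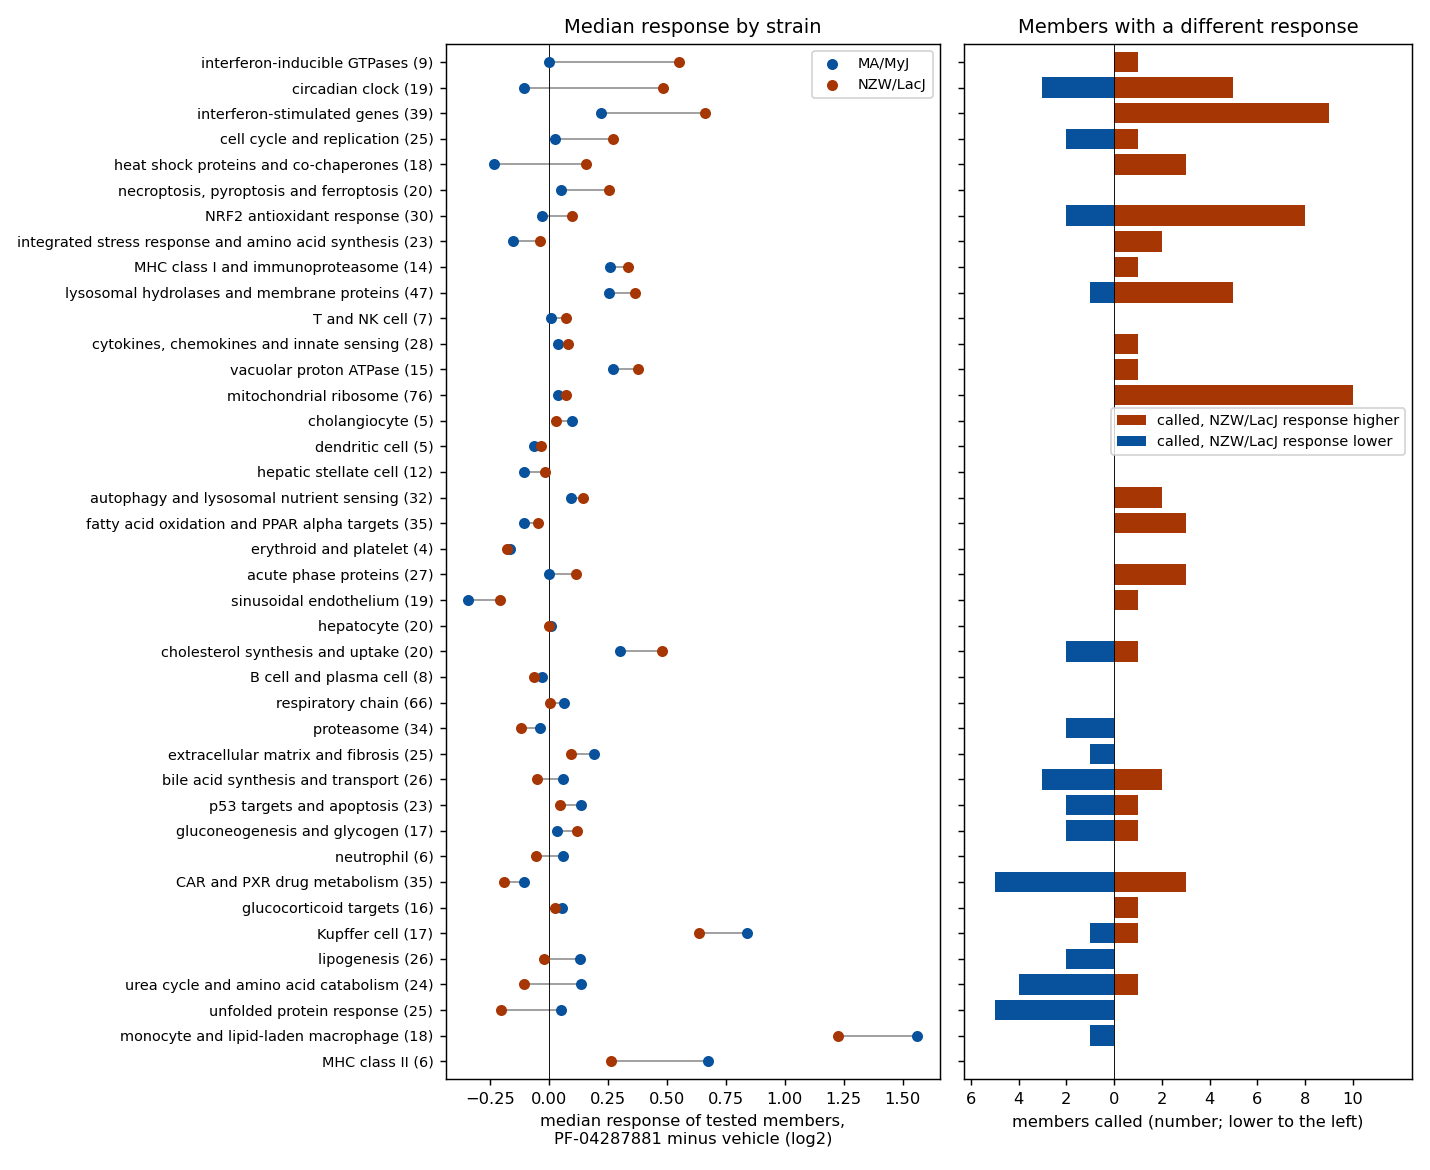
For each of 40 gene lists, with the number of tested members in parentheses and ordered by the median difference of response, the left panel shows the median response of the members to PF-04287881 in log2 units in each strain and the right panel the number of members whose response differed, lower ones to the left and higher ones to the right. The interferon, clock and heat shock lists have the NZW/LacJ median to the right of the MA/MyJ median, and the unfolded protein response and macrophage lists have it to the left.

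Among 34 proteasome subunits 2 had a lower NZW/LacJ response, the regulatory subunits Psmd11 at -0.43 ± 0.10 (adjusted p = 0.0126) and Psmc1 at -0.40 ± 0.12 (adjusted p = 0.0389), and 13 fell in NZW/LacJ and 3 in MA/MyJ, where 10.7% and 3.90% of all genes fell. Of 25 cell cycle genes, 1 had a higher and 2 a lower response, against 7.05% and 3.19% of all genes. Rrm2, the small subunit of ribonucleotide reductase, had 10.07, 9.78, 10.18 and 9.56 against 9.37, 8.75, 9.28 and 9.52 in NZW/LacJ and 7.84, 7.80, 7.89 and 7.26 against 8.34, 8.59, 8.20 and 8.00 in MA/MyJ, a difference of -1.26 ± 0.26 (adjusted p = 0.00727). Stmn1 had a difference of 1.02 ± 0.29 (adjusted p = 0.0366), and Myc, a growth regulator that rose by 1.01 in MA/MyJ, one of -0.80 ± 0.21 (adjusted p = 0.0246). Psmd11 held with 31 and 30 arrays, Psmc1, Rrm2 and Stmn1 with 30, and Myc with neither. The other probe sets of Psmd11 gave -0.58 to -0.03. With the mean of all probe sets the calls of Psmd11 and Stmn1 were lost. Psmc1 and Stmn1 lost their calls without any 1 of 11 animals and Myc without treated MA/MyJ animal 2 or NZW/LacJ vehicle animals 1 or 2. Without treated NZW/LacJ animal 3, 5 cell cycle genes had a higher response, and over all single omissions 0 to 5 did.

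In carbohydrate and amino acid metabolism most called genes had the lower response in NZW/LacJ. Of 24 urea cycle and amino acid breakdown genes, 1 had a higher and 4 a lower response, against 7.05% and 3.19% of all genes. The median was -0.22, and 3 of the differences were positive, where 53.9% of all genes were. Gldc, which cleaves glycine, had 12.04, 11.92, 12.05 and 12.05 against 10.93, 11.24, 11.45 and 10.75 in NZW/LacJ, whereas MA/MyJ animals lay between 11.80 and 12.07, and the difference was -0.81 ± 0.16 (adjusted p = 0.00469). Kynu, Asl and Gpt2 had -0.62, -0.46 and -0.34, and Glul, glutamine synthetase, 0.32. Of 17 genes of gluconeogenesis and glycogen, 1 had a higher and 2 a lower response, against the same shares of all genes. Ppp1r3c, which targets a phosphatase to glycogen, had 12.57, 12.18, 12.55 and 12.33 against 10.55, 11.35, 11.04 and 10.16 in NZW/LacJ and a difference of -1.07 ± 0.29 (adjusted p = 0.0283). Gckr, the inhibitor of glucokinase, rose in both strains with a difference of 0.67 ± 0.16 (adjusted p = 0.0141), and the glycogen phosphorylase Pygl had -0.38 ± 0.11 (adjusted p = 0.0457).

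Gldc held with 30 arrays, and no other of these metabolic calls held with 31 or 30. Those of Kynu, Asl, Gpt2, Glul and Pygl were lost without any 1 of 11 to 13 animals and that of Ppp1r3c without NZW/LacJ vehicle animals 1 or 3 or treated NZW/LacJ animal 1. Of 16 glucocorticoid targets, 1 passed, the co-chaperone Fkbp5 at 0.93 ± 0.28 (adjusted p = 0.048), which was lost without any 1 of 13 animals and with 31 or 30 arrays. Of 25 matrix and fibrosis genes, 1 passed, the membrane protease Mmp14 at -0.71 ± 0.12 (adjusted p = 0.00269), which fell by 0.27 in NZW/LacJ, rose by 0.44 in MA/MyJ and held with 31 and 30 arrays.

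Among markers of the other cell types that a liver lobe can hold, almost no difference of response passed. None passed among 6 neutrophil, 7 T and NK cell, 8 B and plasma cell, 5 dendritic cell, 12 stellate cell, 5 cholangiocyte, 20 hepatocyte and 4 erythroid and platelet markers tested. Many markers of the first 4 types were too dim or not matched to the array, since 15, 19, 14 and 10 were listed. Gzmb, a cytotoxic granule enzyme, and Lcn2, a neutrophil granule protein that hepatocytes also make, had differences of 0.23 ± 0.15 and -0.49 ± 0.67 (adjusted p = 0.398 and 0.717). Pkhd1, a cilium protein of bile duct cells, had -0.85 ± 0.28 (adjusted p = 0.0655), and Lrat, which stores retinol in stellate cells, 0.72 ± 0.38 (adjusted p = 0.262).

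Of 19 markers of sinusoidal endothelium, 1 passed, the lectin Clec4g at 0.93 ± 0.26 (adjusted p = 0.0363), with a second probe set at -0.03. It lost its call without any 1 of 9 animals and with 31 or 30 arrays. The median member response of this list put the treated NZW/LacJ animals in the same order as the Kupffer cell list, at -0.09, -0.36, -0.76 and 0.27, against -0.40, -0.41, 0.01 and -0.32 in treated MA/MyJ animals.

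The strains also differed without the drug, and the same arrays enter both that comparison and the difference of response. In vehicle animals 4484 genes differed between strains (35.9%) and in treated animals 3655 did (29.3%). Of the 880 genes with a higher NZW/LacJ response, the strains differed in vehicle animals alone for 473, in treated animals alone for 195, in both for 197 and in neither for 15. Of the 398 with a lower NZW/LacJ response, these numbers were 132, 162, 97 and 7.

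The groups of genes above fall on both sides of this split. Stmn1 differed by -1.05 with vehicle and -0.02 with the drug, Crp by -0.66 and -0.05, and Bach2 by -2.32 and -0.29, so the NZW/LacJ level approached that of MA/MyJ. Ptgds likewise went from 3.53 to 1.53 through its rise in MA/MyJ. Arntl went from -0.66 to -3.34 and Clpx from -0.34 to -2.01, so the strains moved apart. The Tff3 difference did not pass in vehicle animals (adjusted p = 0.962) and was -1.83 in treated ones.

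The responses in SM/J and WSB/EiJ, coded for neither finding, are given beside these without a test, those of WSB/EiJ without treated animal 3. Arntl had a response of -1.08 in SM/J, between -2.83 in NZW/LacJ and -0.15 in MA/MyJ, and Clpx one of -0.70, between -1.70 and -0.03. Sult3a1 had -2.06, close to -1.73 in NZW/LacJ, and Ppp1r3c -1.47, close to -1.63. For Bach2, Acot3, Cers6 and Abca6 the SM/J responses were -0.21, 0.07, -0.08 and -0.20, near 0 where NZW/LacJ had 1.59, 1.28, 1.52 and -1.75. In WSB/EiJ these genes had 0.75, -0.91, -0.17 and 0.68. Dbp had 0.16 in SM/J and 0.81 in WSB/EiJ, or 1.58 with treated animal 3, against 1.70 in NZW/LacJ, and Arntl had 0.33 in WSB/EiJ. Among the interferon genes Irf7 had 0.96 in SM/J and 1.08 in WSB/EiJ, between 1.89 in NZW/LacJ and 0.52 in MA/MyJ.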

How the data were processed

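Per the labels and the submitters' processing notes, the authors hybridised RNA of 31 livers to 1-colour Affymetrix arrays and deposited log2 values per probe set, made with Affymetrix Power Tools and RMA, which corrects background, applies quantile normalization and summarises probes. The sources used here give no versions, detection calls or scan dates. Quantile normalization removes shifts shared by all genes.

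Of 44721 probe sets, 34728 carried 1 gene symbol, and 1 probe set stood for each gene, the brightest by its average across the 31 arrays. Genes above the median of all values, 6.48, in at least 4 of the 16 arrays were tested, and 5671 dim genes were left out. Values on the 16 arrays lay between 2.71 and 14.8, and with 4 animals a group the median standard error of a difference was 0.13. A model with 1 mean per group was fitted with limma 3.58.1 (R 4.3.3, the data.table package at version 1.17.8; 12 residual and 3.41 prior degrees of freedom), two-sided, with Benjamini-Hochberg adjustment over all tested genes and a threshold of 0.05. The code was tested on simulated data.

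The genes named were the 15 largest called differences in each direction, the 5 largest with opposite responses, and for each of 40 lists the 4 largest called or, where none passed, the 2 largest. 19 higher and 21 lower called genes with predicted or clone names were counted and not named. Alb, Gpnmb, Mmp12, Cd68, Lgals3, Clec4f, Glul, Dnajc3, Clock, Npas2, Tef, Ciart and the remaining list members were named after their values were seen. The comparison, the lists and their members were chosen with earlier results of these data known. Promoter sequences and names come from RefSeq tables of GRCm38.p6. Alternatives were the spread over 31 or 30 arrays, filters, probe set choice, centring, array weights, moderation, a replicate block and leaving out each animal.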

Additional observations from a re-analysis of the deposited data

Results flagged for a closer look

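A single animal stood apart from the other 3 of its group in 23 of 464 group values of named genes, by a gap above Dixon's critical value for 4 animals. Chance flags about 1 in 20 groups, which is the share seen. In vehicle MA/MyJ animals these were Clpx in animal 3 at 12.37, Phlda1 in animal 2 at 10.95, Aen in animal 1 at 9.46 and Rrm2 in animal 4 at 7.26. In treated MA/MyJ animals they were Maff and Usp18 in animal 1 at 6.93 and 8.24, Neu1 in animal 2 at 9.81, and Ppara, Vldlr, Il15 and Psmd11 in animal 4 at 12.19, 6.32, 6.04 and 13.00.

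In vehicle NZW/LacJ animals animal 2 stood apart for Rprd2 at 10.46, Gbp7 at 6.31, Dnajb11 at 9.53, Mrpl14 at 9.91 and Gldc at 11.92. In treated NZW/LacJ animals the values were 8.28 for Alkbh2 in animal 1, 10.44 for Psmc1 and 6.54 for Sox9 in animal 2, 10.29 for Tm7sf2, 9.77 for Hsph1 and 13.67 for Asl in animal 3, and 8.29 for Slc51b in animal 4. Vehicle NZW/LacJ animal 2 had the most, 5.

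The strains differed in their response for 1278 genes by the test of the difference itself. The 5 largest with responses of opposite sign that each passed were Acot3 (2.50), Bach2 (2.03), Tmtc4 (1.94), Pcp4l1 (1.86) and Arl2bp (-1.57).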

How the results depend on the processing

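The count of genes with a different response was 357 with the spread of all 31 arrays and 726 with that of 30 arrays, and 867 to 1337 when single animals were left out. Other choices gave 1048 (no filter on dim genes), 1396 (stricter filter), 1128 (mean of all probe sets), 1259 (probe set with the highest interquartile range), 1239 (centred arrays), 1346 (trend and robust moderation), 1701 (array weights) and 1173 (no moderation). The MA/MyJ response was called for 535 genes with 31 arrays, 952 with 30, 2593 with array weights and 889 to 1716 without single animals, and the level in treated animals for 2246 with 31 arrays. Leaving out single animals gave 3326 to 4218 genes for the NZW/LacJ response, 3695 to 4639 for the vehicle levels and 2901 to 3815 for the treated levels. The cause of these shifts was not tested.

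Of the 94 calls that the naming rule picked, 64 held without each of the 16 animals, and of 27 other called list members 11 did. Signs changed for 4 values, none of them a call under that setting: the difference for Slc4a1 was 0.10 with the mean of all probe sets and -0.15 to 0.0069 when single animals were left out, positive without NZW/LacJ vehicle animal 1, that for Hspa8 was -0.048 with the probe set of the highest interquartile range, and that for Lcn2 was 0.054 with array weights. Among the 1278 genes, 15 and 41 had the opposite sign with the mean of all probe sets and with the probe set of the highest interquartile range.

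Animal numbers were tested as a pairing. The mean correlation of deviations between arrays of the same number was -0.09 to 0.04, and 2 of 16 arrays correlated best with one of their own number. No strong shared deviation was seen, and the numbers were not used as pairs in the main fit. These correlations cannot exclude a weaker factor that animals of the same number share. With a replicate block 1110 genes passed, and 83 of these 94 calls held.

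The smallest called difference was 0.24 log2 units, at a median standard error of 0.13 with 4 animals a group.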
